A study of Gallus gallus with 6 samples.

Results

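miR-26, miR-148 and miR-22 (mir-26, mir-148 and mir-22 in the deposited names) were 3 of the 124 families of known miRNAs listed in chick embryo hearts between days 4 and 14 of incubation. They were chosen as families known from earlier results to be abundant in these libraries, so their levels below are a description and no test was made of them. A line of a known list was taken when its name was one of the 3, and a line of the lists of sequences not found in miRBase (unnamed lists) was taken when its mature interval overlapped such a line by at least 15 nt on the same chromosome and strand. Only 2 unnamed lines were taken, both with an overlap of 22 nt, and no unnamed line overlapped by less than the minimum. The selection gave 18 entries, 16 from the known lists and 2 from the unnamed lists, with 7 of the 830 distinct mature sequences of the series. Each family was listed in all 6 libraries with 1 sequence at 1 locus per library.

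Whole hearts were dissected from Gallus gallus embryos on day 4 (Hamburger-Hamilton stage HH24), day 6 (HH29), day 8 (HH34), day 10 (HH36), day 12 (HH38) and day 14 (HH40), and small RNA of a pool from each stage was sequenced in 1 library. The labels name no treatment, and the stage was the only difference that they give. No stage had a replicate, so every interval below covers counting error only and no p was computed between stages. In RNA of a whole organ, fewer cells of a type and less RNA per cell cannot be told apart.

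A miRNA is cut from a hairpin precursor, and either strand of the stem can be loaded into the silencing complex. The loaded strand pairs with messenger RNAs mainly through its bases 2 to 8, the seed, and lowers their stability or translation. In mammals miR-22 is abundant in cardiac and skeletal muscle and takes part in the hypertrophic response of the heart, miR-26 is known for repressing the histone methyltransferase EZH2 during muscle differentiation, and miR-148 shares its seed with miR-152 and is known for repressing the DNA methyltransferase DNMT1.

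The 7 mature sequences are given here because the length listed differed between libraries while the seed did not. The seed is in capitals, and each sequence is read 5′ to 3′ as deposited.
miR-26, 22 nt, days 4, 6, 12 and 14: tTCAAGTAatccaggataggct
miR-26, 21 nt, day 10: tTCAAGTAatccaggataggc
miR-26, 23 nt, day 8, unnamed list: tTCAAGTAatccaggataggctg
miR-148, 22 nt, days 4, 6, 10, 12 and 14: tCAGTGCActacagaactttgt
miR-148, 23 nt, day 8, unnamed list: tCAGTGCActacagaactttgtc
miR-22, 22 nt, days 4, 6, 8, 12 and 14: aAGCTGCCagttgaagaactgt
miR-22, 21 nt, day 10: aAGCTGCCagttgaagaactg
The forms of a family started at the same base and differed from the 22 nt form only by 1 base at the 3′ end, so a family had 1 seed at all stages. Every form was found whole in a deposited hairpin of its family. The seeds of the 3 families differed from each other, and none of the other listed sequences of the series carried any of them. miR-152, another member of the miR-148 seed family, was listed in 0 libraries.

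In the build that the deposited positions use (Gallus gallus v.2.1) the 22 nt form of miR-26 lay on the plus strand of chromosome 2, chr2:4467525-4467546, on the 5′ arm of its hairpin. The 22 nt form of miR-148 lay on the minus strand of the same chromosome, chr2:32053546-32053567, and that of miR-22 on the minus strand of chromosome 19, chr19:5352113-5352134, both on the 3′ arm. In the RefSeq annotation of a later assembly, from which only names and neighbours were taken, MIR26A1 lies within CTDSPL, a gene for a small phosphatase that acts on the C-terminal domain of RNA polymerase II. MIR22 lies within the span of TLCD2, and MIR148A lies within no other gene and has HNRNPA2B1, an RNA-binding protein gene, as a neighbour. The same annotation lists MIR26A-2 on chromosome 7 and MIR148B on chromosome 34, and no member sequence was listed at a locus on either chromosome. The deposited positions are of the earlier build, and its chromosomes were not matched to those of the later assembly. Whether these copies were expressed can therefore not be read from the lists. Apart from the forms given above, no listed sequence carried the seed of miR-26 or of miR-148 at any locus.

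The libraries differed in depth and in the lengths their lists held. The reads behind the RPM values (reads per 1000000 of a library total set by the authors) numbered between 228290 at day 14 and 37495805 at day 12. Listed miRNAs made up between 0.629% of these reads on day 4 and 51.6% at day 10. The lowest number of reads listed for a sequence was 2 at day 10 and 6 in each of the other libraries. On day 8, 135 of 142 listed sequences had 23 nt, on day 10, 425 of 430 had 21 nt, and on day 14, 43 of 46 had 22 nt. A change between these stages and a change in the lengths listed cannot be told apart, and the part of the length in the results below was not tested. Among miRNAs of heart and skeletal muscle, miR-133 was listed in 5 libraries, miR-206 in 2 and miR-499 in 1, while miR-1 and miR-208 were in 0 of the lists. These 5 families held 0, 0.205, 11.6, 40.5, 1.21 and 1.39% of the listed reads from day 4 to day 14. On day 10, 712093 of their 716691 reads were of miR-499, which only that library listed, and 4598 were of miR-133. The endothelial miR-126 and the hepatic miR-122 were listed in 5 libraries each. Of the epithelial miRNAs miR-205 was listed in 6 libraries, miR-200 in 4 and miR-141 in 0, and of the neural ones miR-9 in 5 and miR-124 in 3. Of the blood cell miRNAs, miR-144 of red cells was listed in 2 libraries and miR-451 in 0, and miR-142 of white cells in 4 and miR-223 in 0.

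miR-26 was the most abundant of the 3 on days 4, 10, 12 and 14. It had 366 RPM at day 4, 8949 at day 6, 680 at day 8, 4234 at day 10, 26253 at day 12 and 20667 at day 14. These levels rest on 1023, 82749, 3800, 14513, 984387 and 4718 reads. Its level was thus highest on day 12 and lowest on day 4, 71.7-fold apart, with a high value on day 6 set between low ones on days 4 and 8.

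miR-148 was the most abundant of the 3 on days 6 and 8. It had 64.8 RPM at day 4, 14159 at day 6, 1002 at day 8, 1729 at day 10, 18397 at day 12 and 6917 at day 14, from 181, 130914, 5602, 5927, 689796 and 1579 reads. Its levels on days 4 and 12 were 284-fold apart, the widest span of the 3. miR-22 had the lowest level of the 3 at every stage. It had 64.1 RPM at day 4, 3302 at day 6, 211 at day 8, 1124 at day 10, 11790 at day 12 and 3947 at day 14, from 179, 30534, 1177, 3854, 442081 and 901 reads. On day 4 miR-148 and miR-22 could not be told apart, with intervals from the counts of 55.4 to 74.2 RPM for miR-148 and 54.7 to 73.5 RPM for miR-22.

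**Figure D1:**
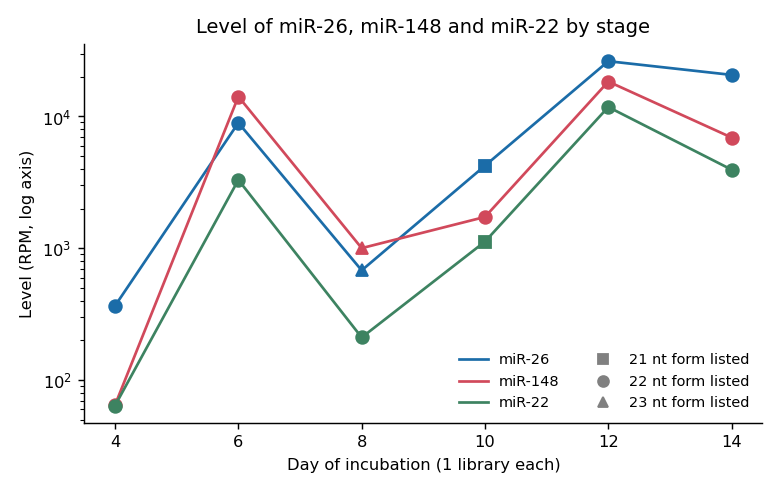
Level in RPM (log axis) of miR-26, miR-148 and miR-22 against the day of incubation, 1 library each, with the marker showing the length of the sequence listed. All 3 lines are lowest on day 4, highest on day 12 and low again on day 8, where miR-26 and miR-148 were listed as 23 nt forms.

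As a share of all listed reads the order of the stages was different. miR-26 made up 5.82% of the listed reads on day 4, 2.49% at day 6, 0.312% at day 8, 0.820% at day 10, 12.7% at day 12 and 29.5% at day 14 (95% Wilson interval 28.8 to 30.2% at day 14). miR-148 made up 1.03, 3.94, 0.460, 0.335, 8.90 and 9.87% at the same stages, and miR-22 made up 1.02, 0.919, 0.0967, 0.218, 5.70 and 5.63%. The 3 families together held 7.87% of the listed reads on day 4, 7.35% at day 6, 0.869% at day 8, 1.37% at day 10, 27.3% at day 12 and 45.0% at day 14. Their largest shares therefore stood in the last 2 libraries, and their smallest on days 8 and 10.

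Ranked among the families of a library, miR-26 was 2nd of 28 at day 4, 5th of 92 at day 6, 25th of 71 at day 8, 8th of 86 at day 10, 2nd of 102 at day 12 and 1st of 31 at day 14. miR-148 was 7th, 3rd, 22nd, 15th, 5th and 4th at these stages, and miR-22 was 8th, 9th, 31st, 19th, 7th and 5th. All 3 were thus among the first 9 families in the 4 libraries where all 3 were listed as 22 nt forms, and each had its lowest rank on day 8. miR-22 was also a 22 nt form on day 8, where it was 31st. miR-148 was also a 22 nt form on day 10, where it was 15th.

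The families that held most of the other reads differed between the libraries. miR-10, encoded in the HOX clusters, held 80.6% of the listed reads on day 4 and 72.3% at day 6, which leaves the remaining families a small part there. On day 8 miR-181 held 39.5%, and on day 10 miR-499 and miR-126 held 40.2 and 39.5%. Sequences of 23 nt held 99.9% of the listed reads on day 8, and those of 21 nt held 99.7% on day 10. For these leading families too, stage and the lengths listed cannot be told apart. On day 12 miR-10 held 13.3% and miR-26 12.7%, and on day 14 miR-10 held 19.8%, below miR-26. Against let-7, a family linked to differentiation, miR-26 was higher on days 4, 6, 12 and 14 and lower on days 8 and 10. let-7 had 76.3, 2759, 2165, 8743, 25134 and 2260 RPM from day 4 to day 14. The level of let-7 is the sum over all its listed sequences, whereas miR-26 had 1 sequence per library. On days 8 and 10 miR-26 was listed as its 23 nt and 21 nt forms, so stage and the lengths listed cannot be told apart in this comparison.

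**Figure D2:**
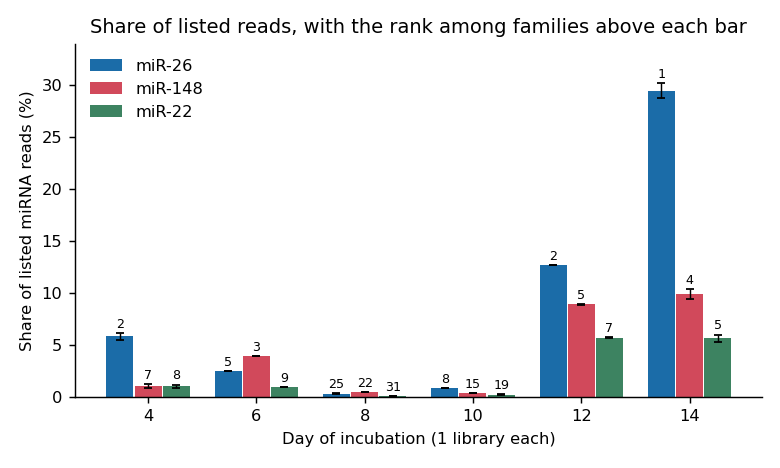
Share of the listed miRNA reads (%) taken by each family on each day, 1 library each, with 95% Wilson intervals from the counts and the rank among the families of that library above each bar. The 3 families stand highest on days 12 and 14, where miR-26 reaches 12.7 and 29.5%.

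Each form was also ranked among the listed sequences of its own length. The 22 nt forms ranked between 1st and 6th among the 22 nt sequences on days 4, 6, 12 and 14. The day 8 list held 7 sequences of 22 nt, and miR-22 was the most abundant of them with 1177 of 1800 reads (65.4%). The day 10 list held 3 sequences of 22 nt, and miR-148 was the most abundant of them with 5927 of 6007 reads (98.7%). The 21 nt forms on day 10 ranked 7th for miR-26 and 18th for miR-22 among 425 sequences. On day 8 the 23 nt forms ranked 31st for miR-26 and 25th for miR-148 among 135 sequences. The reads of other lengths on days 8 and 10 were not analysed here.

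Neighbouring stages were compared by the log2 ratio of RPM, the later stage over the earlier, beside all families listed in both libraries. On day 6, relative to day 4, all 3 families were at least 2-fold higher, with ratios of 4.61 for miR-26, 7.77 for miR-148 and 5.69 for miR-22. All families shared by these libraries were at least 2-fold higher too (100%), with a median of 6.41, so miR-26 and miR-22 were below the median and miR-148 above it. On the share of listed reads the ratios were -1.23, 1.94 and -0.15, with opposite signs for miR-26 and miR-148. The interval of miR-22 included 0 (-0.36 to 0.06).

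On day 8, relative to day 6, all 3 families were at least 2-fold lower, against 39.4% of the 66 families in both libraries. The log2 ratios lay close together, at -3.72 for miR-26, -3.82 for miR-148 and -3.97 for miR-22, while the median was 0.13 and 42.4% of the families were at least 2-fold higher. The 3 families ranked 56th, 58th and 59th of the 66 from the highest change. The form of miR-22 was the same 22 nt sequence on both days, whereas miR-26 and miR-148 had 22 nt on day 6 and 23 nt on day 8. Sequences of 22 nt held 87.5% of the listed reads on day 6 and 0.148% on day 8. The change of miR-22 therefore cannot be told apart from the lengths listed either.

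On day 10, relative to day 8, miR-26 and miR-22 were at least 2-fold higher, with log2 ratios of 2.64 and 2.42, and miR-148 had 0.79. Of the 50 families in both libraries, 36% were at least 2-fold higher and 54% at least 2-fold lower, and the median was -1.72. On the share of listed reads the ratios were 1.39 for miR-26, 1.17 for miR-22 and -0.46 for miR-148, so the direction of miR-148 turned with the scale. On day 12, relative to day 10, all 3 families were at least 2-fold higher, against 30.6% of 72 families (50% were at least 2-fold lower), with ratios of 2.63 for miR-26, 3.41 for miR-148 and 3.39 for miR-22 beside a median of -0.96. Their forms differed in length between these libraries except for miR-148 on days 10 and 12. Sequences of 22 nt, the length of that form, held 0.339% of the listed reads on day 10 and 71.0% on day 12. The change of miR-148 thus cannot be told apart from the lengths listed either. On day 14, relative to day 12, the ratios were -0.35 for miR-26, -1.41 for miR-148 and -1.58 for miR-22 beside a median of -1.58. The medians include the 3 families, and here miR-22, 15th of 29, was itself the median. The 2 families at least 2-fold lower, miR-148 and miR-22, stood against 72.4% of 29 families, and 6.9% were at least 2-fold higher. On the share of listed reads the ratios were 1.21 for miR-26, 0.15 for miR-148 and -0.02 for miR-22, so the direction of miR-26 and miR-148 turned with the scale.

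**Figure D3:**
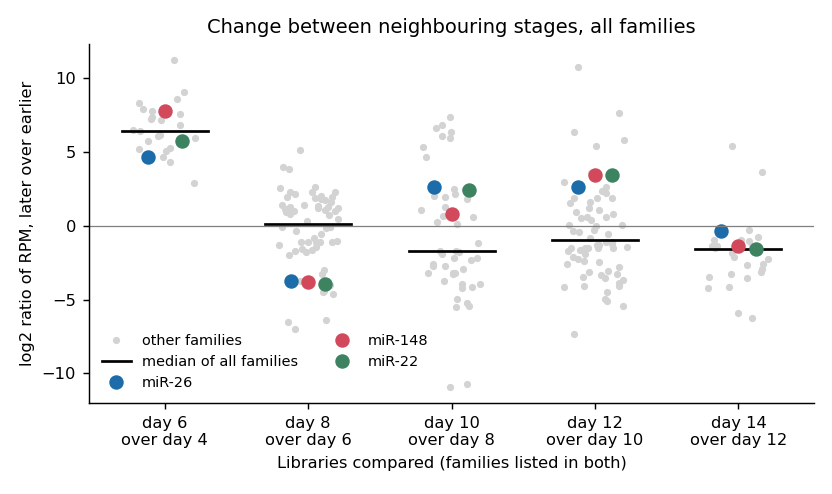
log2 ratio of RPM between neighbouring stages (later over earlier) for every family listed in both libraries, with the median of all families as a black line and the 3 families in colour. From day 8 over day 6 to day 12 over day 10 the 3 families lie on the other side of 0 from the median. In day 14 over day 12 miR-148 lies near the median and miR-22 is itself the median.

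The comparison was repeated on days 4, 6, 12 and 14 over sequences identical in both libraries at 22 nt, so that each form was set against itself. The lengths listed still differed between these libraries. Sequences of 22 nt held 94.0% of the listed reads on day 4, 87.5% at day 6, 71.0% at day 12 and 98.0% at day 14. Stage and the lengths listed therefore cannot be told apart here either. On day 6, relative to day 4, the median over 17 identical sequences was 5.68 on the log2 scale, and all of them (100%) were at least 2-fold higher. miR-22 (5.69) lay at this median, ranked 8th of the 17, miR-26 (4.61) lay below it and miR-148 (7.77) above it. On day 12, relative to day 4, the log2 ratios were 6.16 for miR-26, 8.15 for miR-148 and 7.52 for miR-22, beside a median of 7.04 over 17 sequences, of which 94.1% were at least 2-fold higher and 5.88% at least 2-fold lower. On day 14, relative to day 4, they were 5.82, 6.74 and 5.94 beside a median of 4.83, and 100% of the 17 sequences were at least 2-fold higher. On day 12, relative to day 6, miR-26 and miR-22 were at least 2-fold higher, at 1.55 and 1.84 on the log2 scale, against 26.2% of 65 identical sequences, and miR-148 had 0.38. The median of these sequences was -1.14, and 50.8% of them were at least 2-fold lower. miR-22, miR-26 and miR-148 ranked 13th, 14th and 21st of the 65. On day 14, relative to day 6, miR-26 was at least 2-fold higher (1.21), against 11.1% of 27 identical sequences with a median of -0.80. miR-148 was at least 2-fold lower (-1.03), against 44.4%, and miR-22 had 0.26. On day 14, relative to day 12, 60% of 30 identical sequences were at least 2-fold lower and 10% at least 2-fold higher, with a median of -1.34 beside the values of the 3 families given above. These comparisons share libraries, so their values are not independent of each other.

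Ratios of reads within a library do not depend on the RPM total, but they set unlike lengths side by side where the forms differ. For miR-22 over miR-26 this was so on day 8, with 22 nt against 23 nt. miR-22 had 0.175 reads for each read of miR-26 at day 4, 0.369 at day 6, 0.310 at day 8, 0.266 at day 10, 0.449 at day 12 and 0.191 at day 14. The highest and lowest of these ratios were 2.57-fold apart, although the RPM of either family spanned at least 71.7-fold. Their intervals from the counts overlapped between days 4 and 14 (0.149 to 0.205 at day 4 and 0.178 to 0.205 at day 14).

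miR-148 had 0.177 reads for each read of miR-26 at day 4, 1.58 at day 6, 1.47 at day 8, 0.408 at day 10, 0.701 at day 12 and 0.335 at day 14, a span of 8.94-fold. It exceeded miR-26 only on days 6 and 8. For each read of miR-22, miR-148 had 1.01 reads at day 4 (interval 0.822 to 1.24), 4.29 at day 6, 4.76 at day 8, 1.54 at day 10, 1.56 at day 12 and 1.75 at day 14. Days 6 and 8 thus stood apart from the other libraries for miR-148 against either of the others. On day 8, however, miR-148 had 23 nt and miR-22 had 22 nt. On day 10 miR-148 had 22 nt and both others had 21 nt. In these ratios stage and the lengths listed cannot be told apart. Over the 4 libraries where all 3 were 22 nt forms, the spans were 2.57-fold for miR-22 over miR-26, 8.94-fold for miR-148 over miR-26 and 4.24-fold for miR-148 over miR-22.

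**Figure D4:**
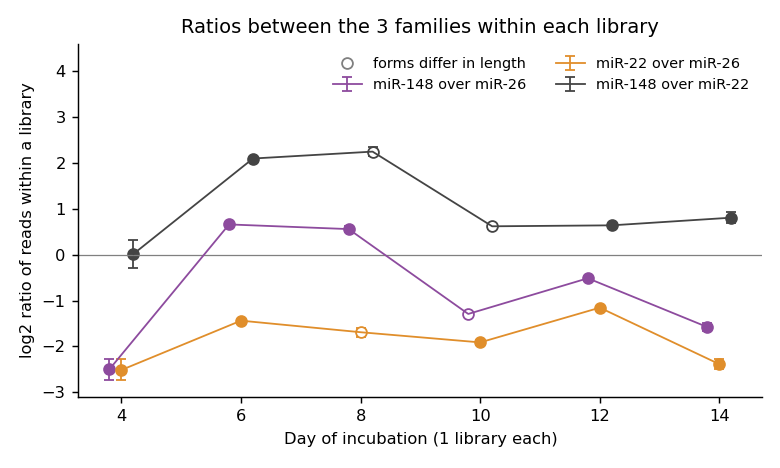
log2 ratio of reads between the families within each library against the day of incubation, with 95% intervals from the counts, and with open markers where both forms differ in length. miR-22 over miR-26 stays between -2.51 and -1.15, while both ratios of miR-148 are highest on days 6 and 8.

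The likeness of families over the stages was measured by the SD over the 6 libraries of the log2 ratio of their reads, which is small when they move together. Among the 15 families listed in all 6 libraries there were 105 pairs, with SDs between 0.53 and 4.88 and a median of 2.66. miR-22 and miR-26 had the smallest SD of all pairs (0.53), miR-148 and miR-22 the next (0.90), and miR-148 and miR-26 the 6th (1.25). Outside the 3, the families nearest to miR-26 were let-7 (1.93) and miR-205 (2.43). Those nearest to miR-148 were miR-205 (1.69) and let-7 (1.74), and those nearest to miR-22 were let-7 (1.72) and miR-205 (2.33). These families share the libraries and their length limits, and the 3 were listed as 22 nt forms in the same 4 libraries, so the SDs are given as a description with no p.

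The lists also give reads of the opposite arm of each hairpin. The most abundant opposite-arm form of each is shown because a PCR assay of the study for miR-22 used a sequence of that arm.
miR-26, opposite arm, 22 nt: cCTATTCTtggttacttgcact
miR-148, opposite arm, 22 nt: aAAGTTCTgtgacactcagact
miR-22, opposite arm, 21 nt: aGTTCTTCagtggcaagcttt
miR-22, sequence given for the PCR assay, 22 nt: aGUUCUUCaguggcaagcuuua
In capitals are bases 2 to 8. The sequence given for the assay equals a listed opposite-arm form of miR-22 with U for T. That form had 9 reads at day 6, 1 at day 8, 2 at day 10, 217 at day 12 and 1 at day 14 and was not listed on day 4. The listed main-arm form of miR-22 had 30534, 1177, 3854, 442081 and 901 reads on days 6 to 14 and 179 at day 4. The sequence given for the assay stood in 0 lines of the known and unnamed lists as a mature sequence.

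The opposite arm of miR-26 had 1 read at day 4, 195 at day 6, 6 at day 8, 60 at day 10, 878 at day 12 and 1 at day 14. As a share of the reads of both arms these were 0.0977, 0.235, 0.158, 0.412, 0.0891 and 0.0212%. That of miR-22 had 21 reads at day 6, 9 at day 8, 103 at day 10, 421 at day 12 and 1 at day 14, or 0.0687, 0.759, 2.60, 0.0951 and 0.111% of both arms. The opposite arm of miR-148 was listed only on day 10, with 295 reads or 4.74% (95% Wilson interval 4.24 to 5.30%). The listed main-arm form thus held over 95% of the listed reads of a hairpin wherever its opposite arm was listed. The opposite-arm shares of miR-26 and miR-22 were largest on day 10, where their main-arm forms were the 21 nt ones. These shares set opposite-arm reads of all listed lengths against a main-arm form of 1 length. For miR-148 on day 10 that form had 22 nt, beside 156 opposite-arm reads of 21 nt and 139 of 22 nt. For miR-22 on day 8 it had 22 nt, while 8 of the 9 opposite-arm reads had 23 nt. The deposited hairpins of the 3 families were also longer on day 10 than on the other days, for miR-148 121 nt against 62 nt. Differences in these shares between stages, in the lengths listed and in the deposited hairpins cannot be told apart. Over all known lines with an opposite arm, the median share was 18.9% at day 4 (7 of 41 lines), 2.16% at day 6, 0.405% at day 8, 1.89% at day 10, 1.17% at day 12 and 0.834% at day 14 (8 of 49 lines). A line without a listed opposite-arm read did not enter this median. Lines outside the 3 families held only 27 opposite-arm reads on day 4 and 75 on day 14.

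The lengths of the opposite-arm reads also differed between libraries. On day 10, 54 of the 60 opposite-arm reads of miR-26 and 101 of the 103 of miR-22 had 21 nt, and 97.0% of such reads of all other known miRNAs did. Among these other miRNAs a sequence listed at several loci added its opposite-arm reads at each. On day 12, 816 of 878 reads of miR-26 had 22 nt, and miR-22 was split into 183 reads of 21 nt, 217 of 22 nt and 21 of 23 nt. On day 8 all 6 reads of miR-26 had 22 nt and 8 of the 9 reads of miR-22 had 23 nt, beside 49.4% of 22 nt and 50.6% of 23 nt in the other families. miR-148 at day 10 had 156 reads of 21 nt and 139 of 22 nt.

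**Figure D5:**
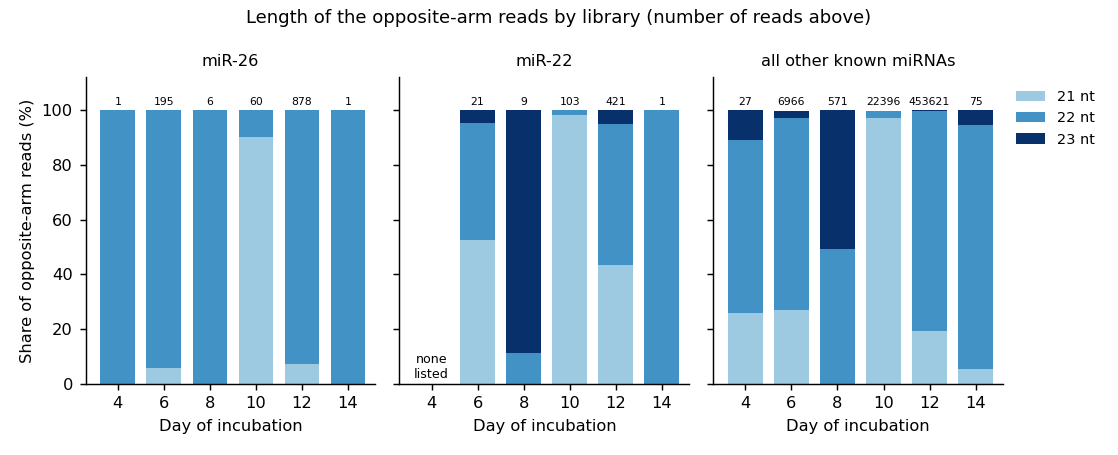
Share (%) of 21, 22 and 23 nt reads among the opposite-arm reads of miR-26, of miR-22 and of all other known miRNAs on each day, with the number of reads above each bar. For the other known miRNAs a sequence listed at several loci was counted at each. On day 10 nearly all have 21 nt in each panel, and on day 8 miR-26 has 22 nt and miR-22 mostly 23 nt, from 6 and 9 reads.

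The deposited hairpins of the 3 families were the same on 5 of the 6 days and longer on day 10. The hairpin of miR-26 had 69 nt, a folding energy of -33.9 kcal/mol and 49.3% G and C, that of miR-22 had 69 nt, -33.2 kcal/mol and 44.9%, and that of miR-148 had 62 nt, -24 kcal/mol and 45.2%. A lower energy means a more stable fold. The medians of all known hairpins on these 5 days lay between -31.36 and -30.4 kcal/mol, so miR-148 had a higher energy than the median and the others a lower one. The median lengths on these days were 70 to 72 nt, and no energy was compared with allowance for length. On day 10 the hairpins had 85 nt for miR-26, 90 nt for miR-22 and 121 nt for miR-148, where 92 of the 93 known hairpins were shorter than that of miR-148. Their energies were -48.4, -45.6 and -56.6 kcal/mol on that day, beside a median of -37.6 and a median length of 83 nt. The G and C content of miR-148 was 62.0% in the longer hairpin.

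The deposited target predictions covered 10 miRNA names in each library, with between 514 and 840 pairs of miRNA and target. None of the 3 families was among these names at any stage, so no predicted target of them was analysed here.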

How the data were processed

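The lists of known miRNAs and of sequences not found in miRBase were used for 6 libraries. After trimming and a quality filter, the authors mapped unique reads with BLAT to the chicken genome (v.2.1), searched miRBase and folded the hairpins. They deposited the read count of each mature sequence, with the reads of its opposite arm, and RPM values. The 1 constant per library between counts and RPM was taken from miR-22. With it every RPM value corresponded to a whole number of reads within rounding. On day 4 some sequences not found in miRBase stood beside the RPM of another, so RPM was computed here from the counts and that constant. The inverse of that constant is the total behind the RPM. The G and C percent and the folding energy of each hairpin were deposited beside it. The score of each target prediction was deposited by the authors, and no pair concerned the 3 families. Hairpin p-values, a second expression sheet of day 6 and lines without a sequence or count were not used here.

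The level of a family is the sum of the RPM of its mature sequences, each counted once per library. Shares carry 95% Wilson intervals, and ratios carry 95% intervals from Poisson counts. A change of at least 2-fold was the only threshold. Named were the 3 families and their sequences, the 2 other families nearest to each by the SD of log2 ratios, seed sharers, fixed lists of abundant families and cell type markers, and the families that held most reads in a library. The last of these, the PCR assay's sequence and the ranks within a length were chosen after their values were seen. The members and lists were chosen with earlier results of these data known. Alternatives were other scalings, lists, lengths, overlaps, loci and count minimums. The intervals and the joining rule were tested on simulated data. Python 3.11.15, pandas 2.3.3, numpy 2.4.6, scipy 1.17.1 and matplotlib 3.10.9 were used.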

Additional observations from a re-analysis of the deposited data

How the results depend on the processing

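Of 9 alternatives, the scalings moved the levels. As a share of all reads of known miRNAs, the highest level of miR-26 and of miR-148 was on day 14 in place of day 12, and the lowest level was on day 8 for miR-26, day 10 for miR-148 and day 8 for miR-22 in place of day 4. On that scale the log2 ratio changed sign for miR-26 on day 6 over day 4 (-1.26) and day 14 over day 12 (1.20), for miR-148 on day 10 over day 8 (-0.96) and day 14 over day 12 (0.14), and for miR-22 on day 6 over day 4 (-0.18). By construction this scale divides by the reads of the known lists only. The reads of known and unnamed lists together ran from 0.629% of the reads behind the RPM on day 4 to 51.6% on day 10. Scaled to the clean reads that the study states, 15 ratios moved, none changed sign, and the days of highest and lowest level stayed. The stated number and percent for day 14 do not match each other, so its ratio on that scale is uncertain. With known lists only, or 22 nt only, miR-26 and miR-148 had no value on day 8, so their likeness to other families over 6 libraries had none either. With 22 nt only, miR-26 and miR-22 had none on day 10. These 2 alternatives only leave out lines, so the ratios between neighbouring stages and within libraries that remained were the same by construction. The days of highest and lowest level stayed under both, and the library counts stayed within 1.5 times. A minimum of 10 reads, counting at each locus, the most abundant sequence only and both overlap rules could not change a value. Each family had 1 sequence at 1 locus per library, with at least 179 reads. The unnamed lines taken differed from a known form by 1 base at the 3′ end, and none overlapped by less than the minimum. So the unchanged values under these alternatives are no check of the results. Shares, ranks, identical sequences and opposite arms were not recomputed. The target score of at least 150 was not run, since no pair concerned these families. No paired analysis was possible because each stage had 1 library. Depth limits days 4 and 14 most, where miR-22 rested on 179 and 901 reads.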
